A study of Mus musculus with 12 samples.

Results

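Antigen presentation in the miR-30a-/- lung was described through 41 genes of the major histocompatibility complex (MHC) and its machinery. They were the protein-coding genes of the count table whose symbol begins with H2-, the mouse name of the MHC, together with B2m, Cd74, Ciita, Nlrc5, Tap1, Tap2 and Tapbp, out of 21936 protein-coding genes and 55487 genes in all. The choice used names and not measured values. Class I held 29 of them, class II 11, and 1 (H2-Ke6) belonged to neither, because its symbol reflects its place in the region and it encodes a short-chain dehydrogenase. A further 11 H2- genes were left out as not protein-coding in the table, among them H2-Ea, which is not functional on this strain background. In the mm10 (GRCm38) annotation, 37 of the 41 genes lie on chromosome 17.

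Whole lungs of 12 C57BL/6J mice were sequenced on postnatal day 21. All 12 mice were miR-30a-/-, from a global CRISPR/Cas9 deletion of the gene, so that exposures and sexes were compared within the knockout, and wild-type libraries were not analysed here. In each sex 3 mice had been kept in hyperoxia (95% FiO2) from postnatal day 1 to 5 and 3 in room air, and the animal number given in the sample titles is used below as the lung number. Pups of several litters had been pooled before allocation, litters are not named in the labels, and the lungs had been flushed with saline through the right ventricle. Depth ran from 8763033 to 16741694 counts per lung, at which 3 counts correspond to 0.191 to 0.327 CPM, the counts divided by each lung's normalised library size. The sex marked by the X- and Y-linked transcripts matched the label in all 12 lungs, and surfactant markers of alveolar type 2 cells were abundant in each. Mir30a had 0 counts in every lung, but such libraries capture short hairpins poorly and this entry does not check the genotype. Male room air lung 1 held skeletal muscle transcripts (8 markers summing to 6177 CPM, against at most 614 in the others), and leaving it out called 1 or more of the 41 genes in no comparison. Room air female 6 stood apart for several interferon-induced genes.

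MHC class I molecules, built from an H2 heavy chain and beta-2 microglobulin, sit on nearly all nucleated cells and show peptides from the cytosol to CD8 T cells. These peptides are cut by the immunoproteasome, moved into the endoplasmic reticulum by the transporter TAP and fitted into the heavy chain with the help of tapasin. Class II molecules are found mainly on B cells, dendritic cells and macrophages, and in the lung also on alveolar type 2 cells. Their alpha and beta chains travel with the invariant chain (Cd74), exchange its remnant for a peptide with the help of DM, and show peptides from endocytosed proteins to CD4 T cells. The transactivators CIITA (class II) and NLRC5 (class I) switch on these promoters together with the RFX and NF-Y factors bound to them, and interferon-gamma induces both.

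Promoters of class I and class II genes share short elements, and 5 are printed to show where they lie, 250 bases up to the annotated start, taken from RefSeq (GRCm38.p6) and written 5′ to 3′ along the gene. Promoter entries were matched for 34 of the 41 genes. Capitals mark matches on either strand to the Y box bound by NF-Y (CTGATTGG), the kappaB element of class I genes (GGGATTCCC) or an IRF element core (AAANNGAAA). The windows are chr17:34287824-34288073, minus strand (H2-Aa), chr17:34305617-34305866, plus strand (H2-Eb1), chr17:34000348-34000597, minus strand (H2-K1), chr17:34187306-34187555, plus strand (Tap1) and chr2:122147437-122147686, plus strand (B2m).
H2-Aa: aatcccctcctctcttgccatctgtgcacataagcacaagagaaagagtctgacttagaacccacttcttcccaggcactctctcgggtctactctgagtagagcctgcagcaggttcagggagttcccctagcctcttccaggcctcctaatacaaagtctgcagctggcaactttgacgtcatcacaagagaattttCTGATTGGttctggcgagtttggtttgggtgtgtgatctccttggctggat
H2-Eb1: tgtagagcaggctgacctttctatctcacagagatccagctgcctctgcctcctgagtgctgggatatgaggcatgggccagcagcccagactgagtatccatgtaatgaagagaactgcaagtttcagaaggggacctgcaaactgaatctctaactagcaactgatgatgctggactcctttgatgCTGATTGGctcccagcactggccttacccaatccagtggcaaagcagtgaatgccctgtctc
H2-K1: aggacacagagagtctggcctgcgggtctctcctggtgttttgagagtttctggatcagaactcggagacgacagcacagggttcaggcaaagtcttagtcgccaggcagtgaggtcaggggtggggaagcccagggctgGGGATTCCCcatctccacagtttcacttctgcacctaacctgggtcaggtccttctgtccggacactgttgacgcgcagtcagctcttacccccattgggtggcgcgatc
Tap1: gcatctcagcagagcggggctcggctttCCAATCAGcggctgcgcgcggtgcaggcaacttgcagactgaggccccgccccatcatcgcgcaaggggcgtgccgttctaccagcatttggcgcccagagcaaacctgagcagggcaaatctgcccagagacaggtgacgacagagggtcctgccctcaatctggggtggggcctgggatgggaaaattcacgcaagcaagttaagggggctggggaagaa
B2m: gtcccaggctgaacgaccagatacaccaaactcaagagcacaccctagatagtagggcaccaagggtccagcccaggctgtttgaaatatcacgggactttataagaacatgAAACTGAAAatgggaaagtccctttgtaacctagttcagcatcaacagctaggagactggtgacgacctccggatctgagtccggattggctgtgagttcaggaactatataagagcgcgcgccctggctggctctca
The Y box letters were found upstream of 4 of the 8 class II genes with an entry and 13 of 25 class I genes, and in 3.83% of all 32851 windows searched. The kappaB letters were found in 4 class I genes (H2-K1, H2-D1, H2-Q6 and H2-Q7) and in 0.301% of all windows. The IRF core was found in 5 class I genes (B2m, H2-T22, H2-T23, H2-T3 and H2-M11), in H2-DMa and in 9.37% of all windows. A match describes the letters and is no measurement of binding.

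Per kilobase of exon, B2m was the most abundant of the 41 transcripts, at a mean of 403 CPM per kilobase over the 12 lungs, followed by the invariant chain Cd74 at 113. The classical class I heavy chains H2-D1 and H2-K1, which show peptides to CD8 T cells, stood at 43.6 and 31.1, beside the class II chains H2-Aa (37.2), H2-Eb1 (28.0) and H2-Ab1 (27.4) and tapasin, Tapbp (28.0). The transporter chains Tap1 and Tap2 lay lower, at 9.02 and 9.51, and the transactivators lower again, at 7.11 for Nlrc5 and 6.24 for Ciita. The 12 heavy chain genes of the M region, several of which are known from vomeronasal neurons, were at 3.03 to 5.54 CPM per kilobase. Olfactory and vomeronasal receptor genes, which a lung should hardly transcribe, had a median of 1.22 CPM per kilobase and a 95th percentile of 2.44 over 2003 genes. Reads at that median density, called background reads here, would make up 21.4% to 39.7% of the counts on M region genes, and 0.289% and 1.02% of those on B2m and Cd74. The share was under 20% for 13 class I genes and 8 class II genes, which are called well-expressed below, a line drawn after the values were seen, and the other 16 class I and 3 class II genes are described by their share. H2-Ke6, with 6 to 29 counts per lung, had fewer reads than the background density gives, and its log2 fold changes were −0.06 ± 0.42 in females and 0.96 ± 0.45 in males. Reads of H2-K1, H2-D1 and the Q and T region genes can align to one another, so the split of counts among these near-identical genes is uncertain.

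Most class II transcripts were at lower levels in hyperoxia than in room air females, with a median log2 fold change of −0.44, while in males the exposures overlapped for all of them but H2-DMb1. None of the 11 genes passed the test. Cd74, the chaperone that holds class II molecules until they reach the endosome, was at 259, 337 and 179 CPM in the room air females (lungs 2, 5 and 6), 186, 177 and 141 in the hyperoxia females (lungs 2, 4 and 5), 137, 227 and 157 in the room air males (lungs 1, 4 and 5) and 197, 115 and 155 in the hyperoxia males (lungs 1, 2 and 3). The hyperoxia females overlapped only with room air lung 6, and in males the exposures overlapped throughout. The log2 fold change of hyperoxia over room air was −0.62 ± 0.27 (standard error, SE) in females, with an adjusted p of 0.370 by edgeR's quasi-likelihood test, and −0.16 ± 0.27 in males, where all 41 genes had an adjusted p of 1.00.

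H2-Aa (chr17:34282744-34287823), the alpha chain of I-A, the class II molecule made by this strain, followed Cd74 closely, at 191, 255 and 135 CPM in room air females, 138, 134 and 102 in hyperoxia females, 106, 171 and 108 in room air males and 150.4, 98.7 and 107 in hyperoxia males. Its log2 fold change was −0.64 ± 0.26 in females (adjusted p = 0.359) and −0.11 ± 0.26 in males. The I-A beta chain H2-Ab1 was at 87.0, 119 and 77.9 CPM in room air females, 67.2, 69.8 and 57.0 in hyperoxia females, 49.6, 87.0 and 54.7 in room air males and 71.3, 51.6 and 52.0 in hyperoxia males. All 3 hyperoxia females were below all 3 room air females, whereas the males overlapped. H2-Ab1 had log2 fold changes of −0.55 ± 0.22 in females (adjusted p = 0.357) and −0.13 ± 0.22 in males. H2-Eb1, the beta chain of I-E, whose alpha chain is not made in this strain, was at 65.1, 97.1 and 49.1 CPM in room air females, 55.1, 57.6 and 42.3 in hyperoxia females, 38.6, 70.9 and 39.5 in room air males and 52.9, 41.6 and 43.9 in hyperoxia males. Here female room air lung 6 was lower than hyperoxia lungs 2 and 4. H2-Eb1 had log2 fold changes of −0.45 ± 0.23 in females (adjusted p = 0.407) and −0.10 ± 0.23 in males.

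Ciita (chr16:10480059-10528418), the class II transactivator, was at 64.4, 60.4 and 129 CPM in room air females, 54.1, 55.6 and 46.5 in hyperoxia females, 49.0, 53.3 and 53.2 in room air males and 55.5, 46.2 and 47.3 in hyperoxia males. Female room air lung 6 was far above the other 11 lungs, which spanned a narrow range, and the female exposures did not overlap. The log2 fold change was −0.70 ± 0.22 in females (adjusted p = 0.339) and −0.06 ± 0.22 in males. Among the DM and DO chains, which load peptides and restrain loading in B cells, H2-DMb1 was at 18.6, 19.4 and 17.2 CPM in room air females, 15.9, 15.3 and 11.2 in hyperoxia females, 13.9, 19.1 and 15.98 in room air males and 13.7, 11.97 and 13.1 in hyperoxia males. It was the 1 class II gene whose exposures did not overlap in either sex, with log2 fold changes of −0.38 ± 0.16 in females (adjusted p = 0.364) and −0.33 ± 0.16 in males. H2-DMa, H2-DMb2 and H2-Ob had log2 fold changes of −0.44 ± 0.16, −0.40 ± 0.17 and −0.31 ± 0.14 in females, and of 0.07 ± 0.16, 0.03 ± 0.17 and 0.08 ± 0.14 in males. H2-Oa and H2-Eb2, at mean levels of 4.46 and 8.31 CPM, had background shares of 37.5% and 48.8% and log2 fold changes of 0.0031 and 0.03 in females.

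**Figure D1:**
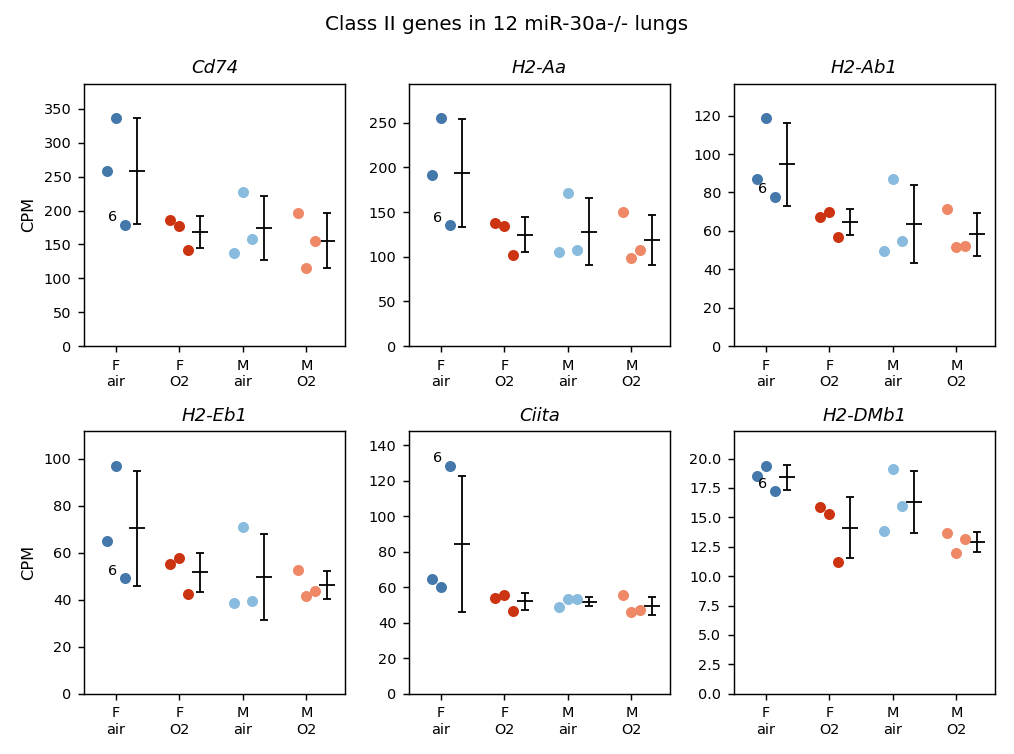
Levels in CPM (linear axis from 0) of 6 class II genes in each lung: females (F) and males (M) in room air (air) or hyperoxia (O2), 1 point per lung, with the mean and SD of the 3 lungs as a bar at the right of each group and the room air female lung 6 numbered. That lung has the lowest Cd74 level of the room air females (179 CPM) and the highest Ciita level of all lungs (129 CPM).

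The 13 well-expressed class I genes were also at lower levels in hyperoxia females, and none of the 29 class I genes passed the test. B2m (chr2:122147686-122153083), the light chain of every class I molecule, was at 460.1, 495 and 580.2 CPM in room air females, 293, 493 and 247 in hyperoxia females, 234, 432 and 254 in room air males and 267, 185 and 223 in hyperoxia males. Hyperoxia female 4 stood at the level of the room air females, well above the other exposed females. B2m had log2 fold changes of −0.57 ± 0.30 in females (adjusted p = 0.407) and −0.45 ± 0.30 in males. H2-K1, a classical heavy chain, was at 114, 138 and 143 CPM in room air females, 89.0, 133 and 61.9 in hyperoxia females, 53.5, 108 and 69.7 in room air males and 65.4, 44.8 and 76.9 in hyperoxia males. Hyperoxia female 4 was again among the room air females. H2-K1 had log2 fold changes of −0.48 ± 0.26 in females (adjusted p = 0.419) and −0.30 ± 0.26 in males. H2-D1, the other classical heavy chain, was at 144, 166 and 158 CPM in room air females, 119, 130.3 and 80.4 in hyperoxia females, 72.0, 136 and 90.5 in room air males and 98.2, 63.2 and 91.3 in hyperoxia males. Its female exposures did not overlap, the males did. H2-D1 had log2 fold changes of −0.51 ± 0.24 in females (adjusted p = 0.392) and −0.24 ± 0.24 in males.

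Tap1 and Tapbp, both of the peptide loading machinery, had the lowest fitted log2 fold changes of the 41 genes in females, but without room air lung 6 Tap1 was at −0.18 and Tapbp at −0.68, beside −0.85 for H2-Aa. Tapbp, tapasin, which bridges the transporter and the empty heavy chain, was at 132, 136 and 172 CPM in room air females, 92.3, 84.4 and 76.5 in hyperoxia females, 72.1, 109 and 86.2 in room air males and 104, 66.7 and 87.3 in hyperoxia males. No hyperoxia female reached the room air females, the males overlapped. Tapbp had log2 fold changes of −0.80 ± 0.22 in females (adjusted p = 0.266) and −0.05 ± 0.22 in males. Tap2, a chain of the peptide transporter, was at 42.1, 43.1 and 57.4 CPM in room air females, 35.1, 28.3 and 31.6 in hyperoxia females, 27.9, 34.3 and 30.8 in room air males and 38.5, 29.0 and 33.3 in hyperoxia males. The female exposures were again apart. Tap2 had log2 fold changes of −0.58 ± 0.16 in females (adjusted p = 0.290) and 0.12 ± 0.17 in males. Its partner Tap1 was at 48.3, 48.7 and 141 CPM in room air females, 40.8, 48.5 and 39.7 in hyperoxia females, 37.4, 44.3 and 39.3 in room air males and 39.4, 31.2 and 34.1 in hyperoxia males. Lung 6 of the room air females was far above every other lung, the remaining lungs overlapped. Tap1 had log2 fold changes of −0.88 ± 0.29 in females (adjusted p = 0.351) and −0.21 ± 0.29 in males. Nlrc5, the class I transactivator, was at 57.2, 50.3 and 162 CPM in room air females, 53.4, 58.0 and 51.6 in hyperoxia females, 46.2, 56.5 and 46.9 in room air males and 44.5, 51.3 and 46.0 in hyperoxia males. Outside lung 6 the female exposures overlapped. Nlrc5 had log2 fold changes of −0.72 ± 0.29 in females (adjusted p = 0.359) and −0.08 ± 0.29 in males.

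Among non-classical heavy chains, H2-T24 of the T region was at 34.2, 30.5 and 47.6 CPM in room air females, 24.9, 20.7 and 21.0 in hyperoxia females, 20.4, 28.8 and 22.4 in room air males and 28.4, 17.4 and 21.2 in hyperoxia males. The 3 hyperoxia females lay below the 3 room air females, and the log2 fold change of −0.75 ± 0.18 had the smallest adjusted p of the 41 genes in females (0.203), beside −0.09 ± 0.18 in males. H2-T22, read by gamma-delta T cells, was at 25.2, 33.3 and 35.2 CPM in room air females, 24.5, 29.3 and 19.4 in hyperoxia females, 19.3, 26.95 and 21.5 in room air males and 20.2, 19.6 and 17.4 in hyperoxia males. The exposures overlapped in both sexes, with log2 fold changes of −0.36 ± 0.16 in females (adjusted p = 0.385) and −0.24 ± 0.17 in males. H2-Q4 was at 38.3, 38.3 and 58.6 CPM in room air females, 32.5, 45.2 and 18.6 in hyperoxia females, 23.2, 36.5 and 24.3 in room air males and 26.3, 17.9 and 25.8 in hyperoxia males. H2-Q4 had log2 fold changes of −0.49 ± 0.26 in females (adjusted p = 0.414) and −0.26 ± 0.26 in males. H2-Q7, which encodes a form of Qa-2, was at 34.5, 35.5 and 44.2 CPM in room air females, 28.3, 49.3 and 24.1 in hyperoxia females, 22.4, 35.6 and 27.1 in room air males and 18.7, 23.4 and 22.5 in hyperoxia males. The highest H2-Q7 level of all lungs was that of hyperoxia female 4. H2-Q7 had log2 fold changes of −0.17 ± 0.20 in females (adjusted p = 0.683) and −0.40 ± 0.21 in males. The remaining well-expressed heavy chains, H2-T23 and H2-Q6, had log2 fold changes of −0.78 ± 0.30 and −0.28 ± 0.33 in females and of −0.02 ± 0.30 and −0.27 ± 0.34 in males. Without room air lung 6 the female value of H2-T23 was −0.30.

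**Figure D2:**
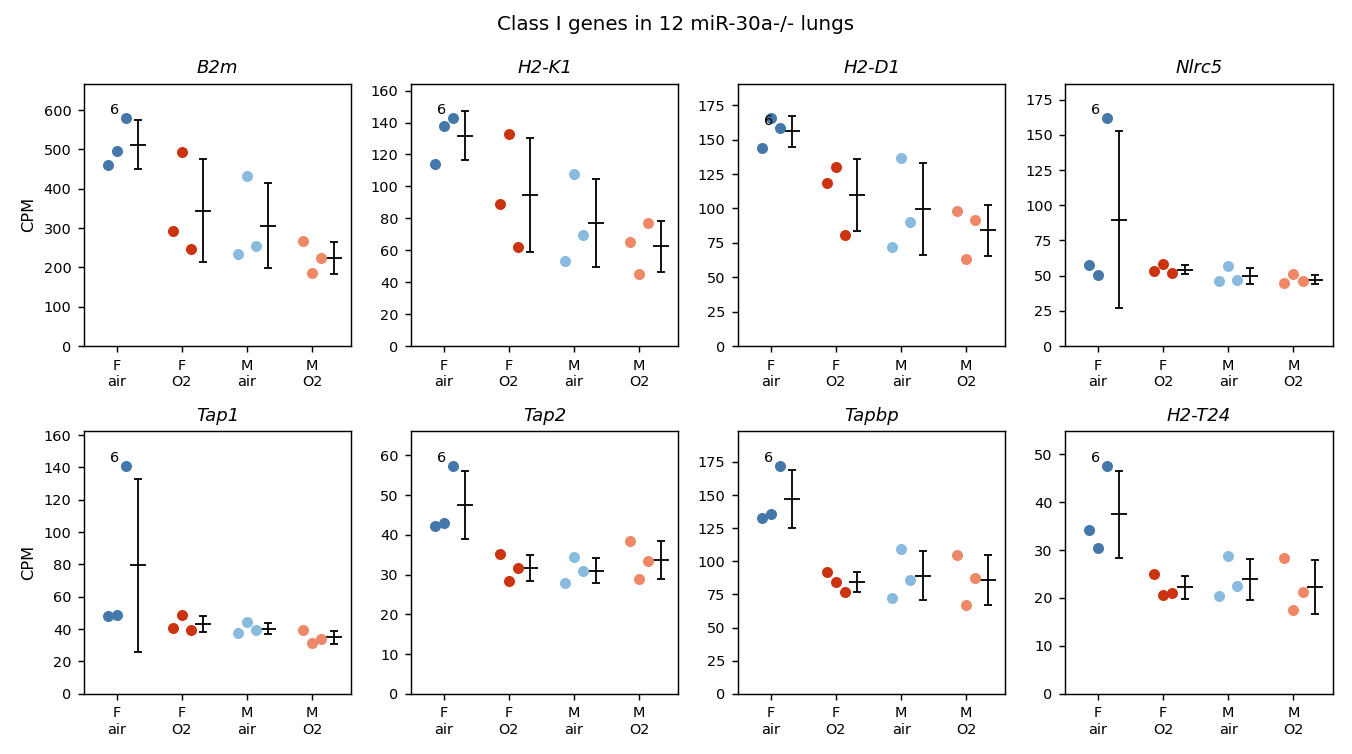
Levels in CPM (linear axis from 0) of 8 class I genes in each lung, drawn as in the plot of class II levels: 1 point per lung, mean and SD beside it, F female, M male, air room air, O2 hyperoxia. Room air female lung 6 stands apart for Nlrc5 (162 CPM) and Tap1 (141 CPM), and the female exposures do not overlap for H2-D1, Tap2, Tapbp and H2-T24.

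The M region ran the other way in females. In the hyperoxia females 11 of its 12 genes had higher levels than in room air females, with a median log2 fold change of 0.36, against 4 of 12 and a median of −0.07 in males. Of all 45828 genes tested, 27852 were higher in hyperoxia females, with a median of 0.11, and 21977 in hyperoxia males, with a median of −0.01. H2-M10.6 was at 3.52, 2.93 and 3.87 CPM in room air females, 4.55, 7.50 and 4.55 in hyperoxia females, 4.07, 4.61 and 3.93 in room air males and 3.25, 5.77 and 5.17 in hyperoxia males. The exposures did not overlap in females, where the log2 fold change was 0.68 ± 0.26 (adjusted p = 0.357), and did in males, where it was 0.16 ± 0.26. H2-M10.4 was the 1 gene that separated the exposures in both sexes in opposite directions, at 2.84, 4.13 and 4.50 CPM in room air females, 5.25, 5.13 and 5.59 in hyperoxia females, 4.98, 6.43 and 5.06 in room air males and 3.40, 4.35 and 4.14 in hyperoxia males, and its difference between the sexes had an adjusted p of 0.578. Each M region gene had 21 to 145 counts per lung. Receptor genes had a similar pattern: 93.7% of the 1803 tested were higher in hyperoxia females, with a median log2 fold change of 0.45, and their median was −0.13 in males. With background reads subtracted, the ratio of mean CPM of H2-M10.6 moved by less than the spread between its lungs in both sexes. The part of background reads in the other M region differences was not tested. H2-Q1, H2-Q2, H2-Q10 and H2-T3, with background shares from 31.4% to 60.02%, had log2 fold changes between 0.06 and 0.13 in females.

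**Figure D3:**
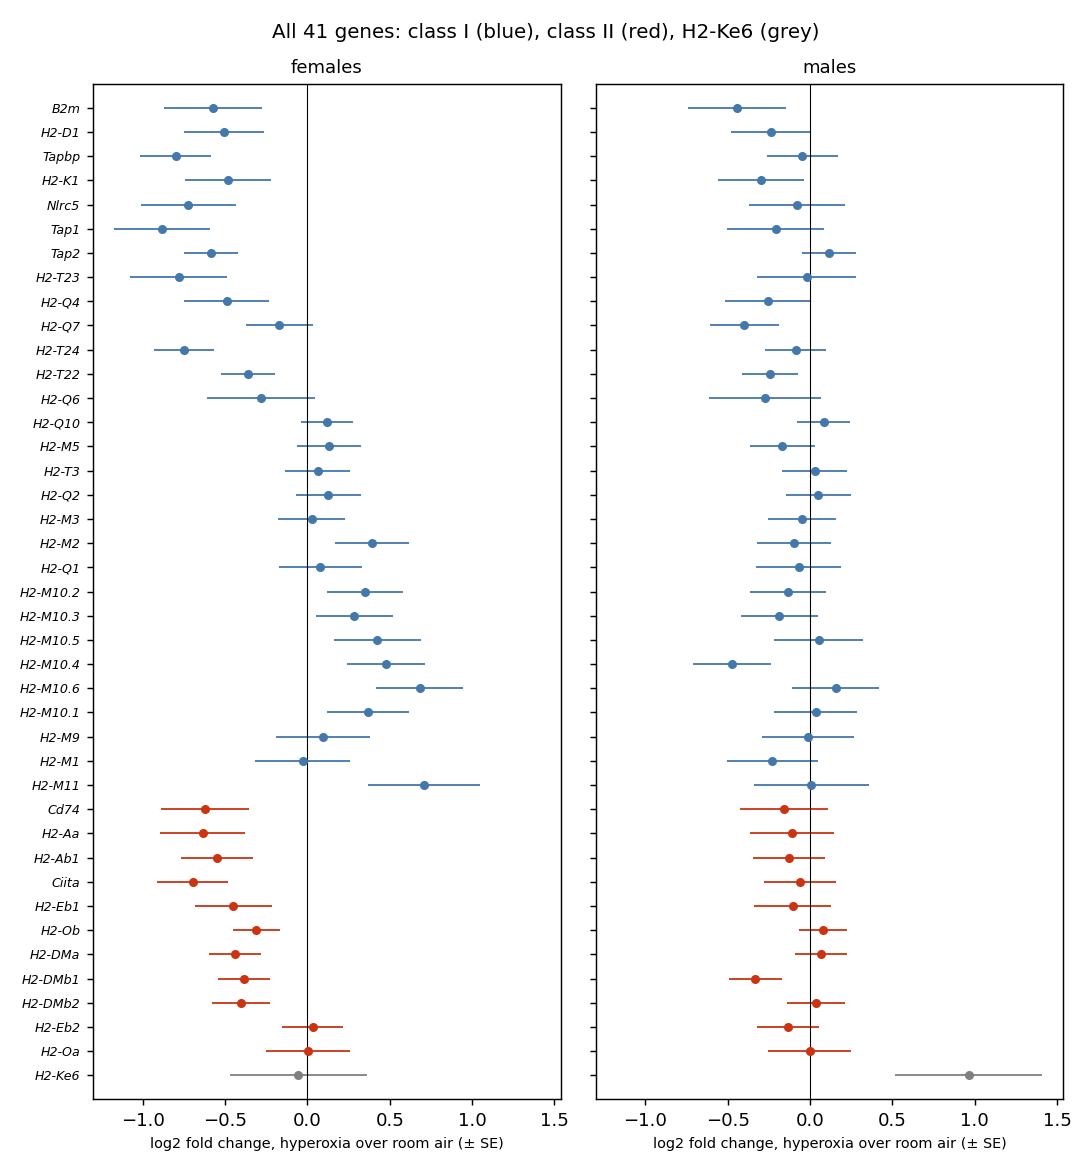
Log2 fold change of hyperoxia over room air with its standard error for each of the 41 genes, females on the left and males on the right, 3 lungs per group, genes ordered by class and by mean CPM. In females the 13 well-expressed class I genes and 8 well-expressed class II genes are all left of 0, most M region genes are right of 0, and in males most intervals cross 0.

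Counted over the list, 0 of the 41 genes were called in hyperoxia against room air averaged over the sexes (called means over 1.5-fold with an adjusted p under 0.05), where 19 of 45828 tested genes (0.0415%) were called. The count was also 0 in females (1 gene, 0.00218% of all), in males (0 genes, 0.0%) and for the interaction of sex and hyperoxia (0 genes, 0.0%), and the smallest adjusted p among the 41 genes was 0.768, 0.203, 1.00 and 0.578 in these 4 comparisons. At an unadjusted p under 0.05, 7 of 29 class I and 5 of 11 class II genes were lower in the average (2.52% of all genes), 8 and 8 in females (5.28%), 0 and 1 in males (1.8%), and 3 and 2 for the interaction (2.4%). Of the genes at a mean of 10 CPM or more, 14.4% were lower in females at this level. That share was 43.4% with 1 and 44.1% with 2 factors of unwanted variation (RUVr) in the fit, and 23.4% with DESeq2. In either direction, 18 of the 41 genes were at this level in females in the main fit, 16 with 1 or 2 RUVr factors and 21 with DESeq2. With a lung left out this share of the genes at 10 CPM or more moved as well, to 30.1% without room air female 6, 4.42% without room air female 5, 6.51% without room air female 2, 5.29% without hyperoxia female 5, 6.39% without hyperoxia female 4, 16.2% without hyperoxia female 2, 18.9% without hyperoxia male 1 and 22.9% without hyperoxia male 2. The class I count in females was 3 without room air lung 6, 5 without hyperoxia lung 5 and 13 without hyperoxia lung 4, and the class II count was 1 without hyperoxia lung 5, 2 without room air lung 5 and 4 without room air lung 2. In the average, leaving out a lung gave 2 (male room air 4) to 12 (male room air 1) class I genes and 1 (female hyperoxia 5) to 6 class II genes, and for the interaction 1 to 6 and 0 to 5. The share of the genes at 10 CPM or more that were lower at this level was 5.85% in the average and 5.81% for the interaction, and with a lung left out it ran from 3.27% to 13.8% and from 1.68% to 30.5%. DESeq2 called 1 of the 41 in females, Tapbp, where it called 89 of all genes (0.194%), and 0 in the average, in males and for the interaction. With 1 or 2 factors of unwanted variation (RUVr) in the fit, 4 were called in females (H2-Aa, Tapbp, H2-M10.6 and H2-M11) and 2 for the interaction (H2-M10.4 and Tap2), where 1903 or 1931 and 2101 or 2194 of all genes were called. In females 4 class I and 5 class II genes had all hyperoxia lungs below all room air lungs (6.42% of all genes did), 1 of each class did in males (3.89%), and 0 of the 41 did over both sexes (0.12%). In females 4 class I genes, H2-M10.3, H2-M10.4, H2-M10.6 and H2-M11, had all hyperoxia lungs above all room air lungs, as 10.8% of all genes did.

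The median log2 fold change of all 45828 genes was 0.03 in the average, 0.11 in females and −0.01 in males, so that in females a value of 0.11 marks the middle of the genes. Class II had a median of −0.28 in the average, −0.44 in females and −0.10 in males. Class I had −0.02, 0.03 and −0.09, and every one of the 40 genes had a mean of at least 1 CPM. The well-expressed genes of both classes lay close together, with female medians of −0.57 (13 of 13 below 0) and −0.50 (8 of 8), and male medians of −0.24 (12 of 13) and −0.11 (6 of 8). With a lung left out the female class I median ran from −0.80 (hyperoxia female 4) to −0.30 (room air female 6). The female class II median ran from −0.62 (room air female 6) to −0.37 (room air female 5). Without male room air lung 4 the male medians were 0.03 and 0.17, with 8 of 13 and 6 of 8 genes above 0. Genes of a similar level were mostly lower in hyperoxia females too: of the 14605 genes at a mean of 10 CPM or more, 71.2% had a negative value and the median was −0.17.

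Background reads moved with these levels. Receptor genes took 0.453% to 0.819% of the counts in room air females and 0.738% to 0.936% in hyperoxia females, against 0.709% to 0.996% and 0.569% to 1.04% in the males. Room air females 5 and 2, with the highest Cd74 levels, had the smallest receptor shares of the female lungs. Over the 12 lungs Cd74 and the receptor share, a pair added after the data were seen, had a Pearson r of −0.93 (permutation p = 5e-05, adjusted over 12 relations 0.00015) and a Spearman rho of −0.93 (permutation p = 9e-05), with r = −0.95 without the 2 lungs farthest from the median share. For B2m the r was −0.52 (permutation p = 0.0852, adjusted 0.102), with rho = −0.55 (p = 0.0666) and r = −0.59 without the 2 farthest lungs. Background reads were 1.02% of the counts on Cd74. Subtracting background reads moved the ratios of mean CPM of the 18 genes given per lung by less than the spread between lungs. With the log2 receptor share as a covariate the female difference of class II shrank to a median of −0.16, Cd74 to −0.06, H2-Aa to −0.11 and H2-Ab1 to −0.16, and H2-Eb1 turned to 0.06. The receptor share itself differed between the female exposures, so this fit cannot tell the share and the exposure apart. In that fit 7 of the 41 genes had differences of more than 0.5 below 0: Tap1 (−1.12), Nlrc5 (−1.05), Ciita (−0.85), H2-T23 (−0.85), H2-T24 (−0.69), Tapbp (−0.67) and Tap2 (−0.55), and 0 of the 41 genes were called in it. With room air female 6 left out and no covariate, the female log2 fold changes of these 7 genes were in the same order −0.18, 0.0077, −0.27, −0.30, −0.55, −0.68 and −0.43. Gm10800, a predicted gene that took more counts than any other, held 9.52%, 6.04% and 16.6% of the counts in room air females and 15.5%, 22.4% and 21.5% in hyperoxia females, against 15.0% to 21.6% and 7.18% to 23.8% in the males. In females the exposures overlapped by 1 lung on each side, and its part in the MHC differences was not tested. Room air female 5, with the smallest share of both, was the highest of the 12 lungs for 38.8% of all genes at 10 CPM or more, against 2.32% to 14.1% for each other lung.

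Between the sexes, averaged over both exposures, 19 of 29 class I genes were higher and 10 lower in females, with a median log2 difference of 0.11, and 8 of 11 class II genes were higher, with a median of 0.17. Of all genes 56.7% were lower in females, with a median of −0.03. Of those at 10 CPM or more 38.2% were lower, with a median of 0.03. The class I median was 0.014 without female room air lung 6 and 0.23 without female room air lung 5. None of the 41 genes was called in this comparison, where 559 of all genes (1.22%) were. At an unadjusted p under 0.05, 13 class I genes were higher (4.05% of all genes) and 1, H2-T3, lower. These 13 were the well-expressed ones, with a median log2 difference of 0.52, female minus male. They stayed higher in females with any lung left out, but 7 passed that level without female room air lung 6 and 5 without male hyperoxia lung 2. Mean H2-K1 was 113 ± 31.9 CPM in females and 69.6 ± 21.8 in males (SD, 6 lungs each), a log2 difference of 0.69 ± 0.19 with an adjusted p of 0.0615, and mean B2m was 428 ± 129.6 against 266 ± 86.2, a log2 difference of 0.68 ± 0.21 with an adjusted p of 0.150. H2-Q7 (0.54 ± 0.14, adjusted p = 0.0588) and Tap1 (0.64 ± 0.21, 0.241) differed in the same direction. DESeq2 called 2 of the 41 genes in this comparison, B2m and H2-K1, and 791 of all genes (1.73%). The sexes overlapped for every one of the 41 genes, whereas for 0.886% of all genes the 6 females were above the 6 males. The 8 well-expressed class II genes had a median difference of 0.33, and 2 of the 11 class II genes, Ciita and H2-Ab1, were higher at an unadjusted p under 0.05. With a lung left out, 1 (female hyperoxia 4 among others) to 6 (male hyperoxia 1) of these 8 were higher at that level. In either direction 5383 of all genes were at that level without male hyperoxia lung 1, against 3153 over all lungs. Without female room air lung 6 the log2 difference was 0.29 for Tap1, 0.16 for Nlrc5, 0.17 for Ciita, 0.66 for H2-K1, 0.63 for B2m and 0.48 for H2-Q7. These counts turned on single lungs: leaving out male room air lung 4 called 4 genes (B2m, H2-K1, H2-Q4 and H2-Q7), and leaving out female hyperoxia lung 5 called 4 (H2-K1, H2-Q4, H2-Q6 and H2-Q7). Without female room air lung 5 the calls were Nlrc5 and Tap1, without female room air lung 2 Tap1, without male hyperoxia lung 1 H2-K1 and without female hyperoxia lung 2 H2-Q7, and without female room air lung 6 there were 0. These fits called 1.02% to 1.46% of all genes.

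One library stood apart within this group of genes. In room air female 6, Nlrc5 reached 162 CPM against 44.5 to 58.0 in the other 11 lungs, Tap1 141 against 31.2 to 48.7, and Ciita 129 against 46.2 to 64.4. H2-T23, the Qa-1 heavy chain, named here after its values were seen, reached 82.6 CPM against 21.9 to 37.7. The lung was the highest of the 12 for 11 of 29 class I and 2 of 11 class II genes. Of all 45828 genes tested 2648 (5.78%) were highest in it, and of the 14605 genes at 10 CPM or more 446 (3.05%) were. Cd74, H2-Aa and H2-Eb1 were instead lower in it than in the other room air females. Of 11 interferon-gamma pathway genes, 5 were highest in this lung and 4 were over 2-fold above the median of the others, with a median ratio of 1.10 over the 11. Of the genes at 10 CPM or more 0.411% were over 2-fold above it. Of 10 peptide loading and immunoproteasome genes outside the 41, 6 were highest in this lung and 1 was over 2-fold above, with a median ratio of 1.48. Among those named here after their values were seen, Gbp2, a guanylate-binding protein, was at 347 CPM against at most 39.5 elsewhere, and the GTPase Igtp was at 162 against at most 16.7. Irf1, an interferon-induced transcription factor, was at 93.2 against at most 49.7. Ifng itself had a background share of 88.5% and a level of 1.58 CPM in this lung, within the range of the others, and the chemokine Cxcl9 was at 6.72 against a highest value of 9.30. This lung was the highest for 0 of 10 markers each of B cells, T cells and dendritic cells, for 1 of 10 each of alveolar macrophages (Marco) and of interstitial macrophages and monocytes (Ly6c2), and for 1 of 8 leukocyte markers (Vav1). Without this lung the female log2 fold changes were 0.0077 for Nlrc5, −0.18 for Tap1 and −0.27 for Ciita, while Cd74 moved to −0.83, H2-Aa to −0.85, H2-Eb1 to −0.66 and Tapbp to −0.68. The median of the well-expressed class I genes moved from −0.57 to −0.30 and that of the class II genes from −0.50 to −0.62, and 0 of the 41 were called. With room air female 5 left out instead, these medians were −0.60 and −0.37.

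**Figure D4:**
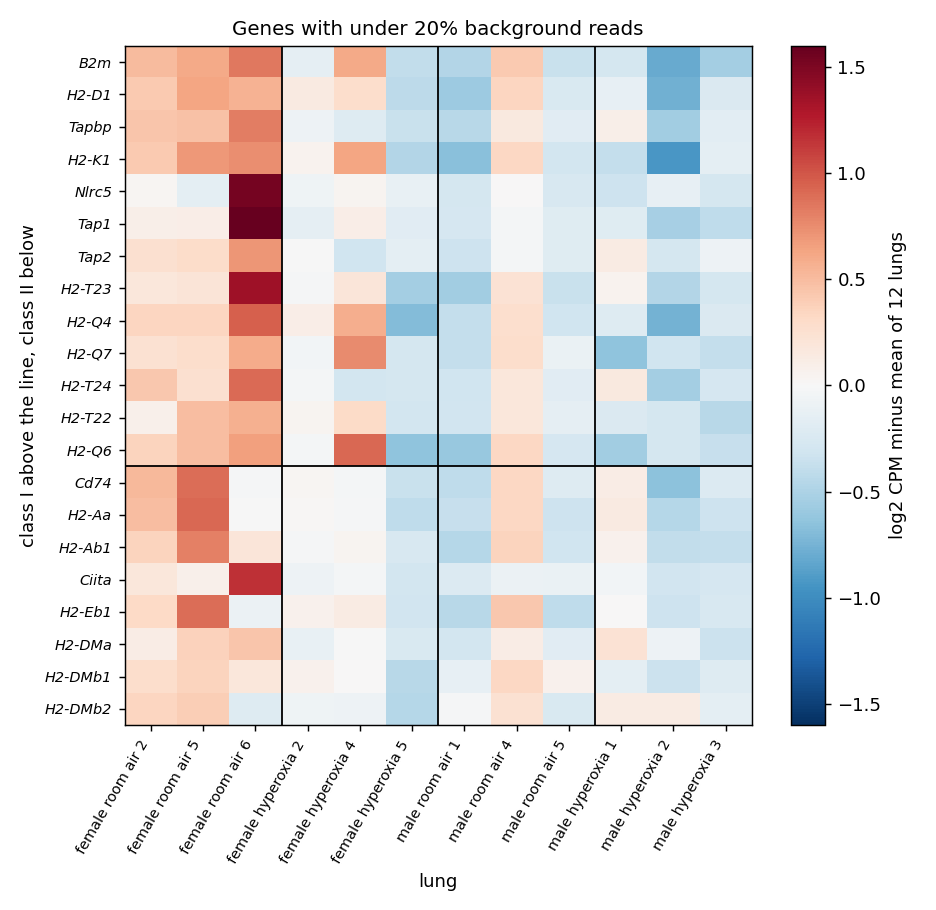
Log2 CPM of the 21 well-expressed genes in each lung minus the gene's mean over the 12 lungs, class I above the horizontal line and class II below, lungs grouped by sex and exposure. Room air female 6 is highest for Nlrc5, Tap1, H2-T23 and Ciita, room air female 5, highest for 38.8% of all genes at 10 CPM or more, for Cd74, H2-Aa, H2-Ab1 and H2-Eb1, and hyperoxia female 4 differs from the other exposed females in B2m, H2-K1, H2-Q6 and H2-Q7.

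The ratio between partner genes varied little over the lungs for some pairs and more for others. H2-Aa over Cd74 stayed between 0.685 and 0.856 in CPM (coefficient of variation 5.77%), and H2-K1 over B2m between 0.229 and 0.345 (12.2%), while Tap1 over Tap2, the chains of 1 transporter, ran from 1.02 to 2.46 (30.3%), Ciita over Cd74 from 0.179 to 0.717 (40.3%) and Nlrc5 over H2-K1 from 0.365 to 1.14 (36.3%). Room air female 6 held the highest Tap1 over Tap2 and Ciita over Cd74, and without it they reached 1.71 (coefficient of variation 15.99%) and 0.400 (20.6%). Log2 levels (with 0.5 CPM added) were correlated over the 12 lungs, and permutation p-values were adjusted over 12 relations, the pair with the receptor share included. Cd74 with H2-Aa gave r = 0.98 (permutation p = 1e-05, adjusted 6e-05), rho = 0.99 (p = 1e-05, adjusted 0.000120) and r = 0.95 without the 2 lungs farthest from the median. B2m with H2-K1 gave r = 0.96 (permutation p = 1e-05, adjusted 6e-05), rho = 0.92 (p = 3e-05, adjusted 0.000180) and r = 0.94 without the 2 lungs farthest from the median. For Cd74 and its regulator Ciita the values were r = 0.31 (permutation p = 0.303, adjusted 0.330), rho = 0.78 (p = 0.00398, adjusted 0.00682) and r = 0.87 without the 2 lungs farthest from the median, and without room air female 6 r was 0.87. Against Sftpc, the surfactant protein C gene of alveolar type 2 cells, Cd74 had r = 0.91 (permutation p = 5e-05, adjusted 0.000150), rho = 0.85 (p = 0.000720, adjusted 0.00216) and r = 0.80 without the 2 lungs farthest from the median. Against the B cell receptor gene Cd79a it had r = 0.83 (permutation p = 0.000900, adjusted 0.00216), rho = 0.85 (p = 0.000920, adjusted 0.00221) and r = 0.61 without the 2 lungs farthest from the median. Flt3 and Marco, from the dendritic cell and alveolar macrophage lists, were the only genes of those lists correlated with Cd74. They do not stand for the lists, of which 6 of 10 and 5 of 10 genes were below 0 in females, with Flt3 and Marco above 0. Flt3 gave r = −0.69 (permutation p = 0.0138, adjusted 0.0184), rho = −0.50 (p = 0.105, adjusted 0.115) and r = −0.58 without the 2 lungs farthest from the median. Marco gave r = −0.23 (permutation p = 0.472, adjusted 0.472), rho = −0.03 (p = 0.938, adjusted 0.938) and r = 0.51 without the 2 lungs farthest from the median. B2m with Nlrc5 had r = 0.61 (permutation p = 0.00208, adjusted 0.00367), rho = 0.65 (p = 0.0255, adjusted 0.0340) and r = 0.69 without the 2 lungs farthest from the median. With Ptprc, the common leukocyte antigen CD45, it had r = 0.78 (permutation p = 0.00267, adjusted 0.00400), rho = 0.80 (p = 0.00288, adjusted 0.00576) and r = 0.79 without the 2 lungs farthest from the median. On deviations from the group means, r was 0.33 for B2m with Nlrc5 and −0.35 for Cd74 with Ciita, against 0.97 for Cd74 with H2-Aa. All of these levels share the library and its background reads, and 1e-05 is the smallest p that 100000 permutations give.

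**Figure D5:**
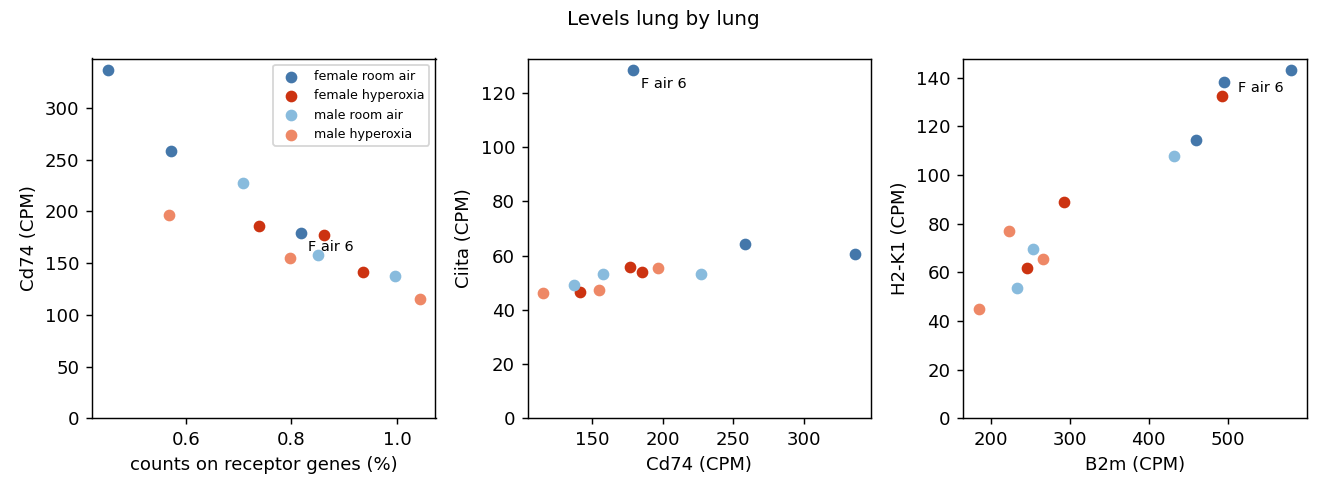
Level against level, 1 point per lung, coloured by sex and exposure: Cd74 (CPM) against the percentage of counts on receptor genes, Ciita against Cd74, and H2-K1 against B2m (CPM). Cd74 is lower where the receptor share is higher (r = −0.93), room air female 6 (F air 6) lies off the relation of Ciita to Cd74, and H2-K1 follows B2m in all 12 lungs (r = 0.96).

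The genes outside the 41 whose log2 levels ran most like Cd74 over the 12 lungs, among 21366 genes at a mean of 5 CPM or more, were Rel (r = 0.99), Trf (0.98), Tmsb4x (0.98), Ints6 (0.97) and Cst3 (0.97). Those most like B2m were Ms4a6c (0.91), Irf5 (0.90), Ifi27l2a (0.90), Cyfip2 (0.89) and Dock2 (0.89). These are the highest values out of 21366 genes over 12 lungs. Cd74 itself followed the receptor share (r = −0.93), and the part of such library-wide differences in these values was not tested.

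Genes that serve the 41 were read from lists, and none of their genes was called in any of the 5 comparisons over all 12 lungs. The shares to read these counts against are 5.28% of all genes and 14.4% of those at 10 CPM or more, 71.2% of which were lower in females. Of 10 genes of the immunoproteasome and the peptide loading complex outside the 41, all 10 were lower in hyperoxia females and 8 had an unadjusted p under 0.05, with a median log2 fold change of −0.56. In males the median was −0.18 and the count 0. The proteasome activator subunit Psme1 was at 50.8, 53.6 and 53.7 CPM in room air females, 33.8, 35.3 and 32.0 in hyperoxia females, 34.4, 42.3 and 38.9 in room air males and 46.7, 29.1 and 30.9 in hyperoxia males, with a log2 fold change of −0.65 ± 0.17 in females, and Erap1, the aminopeptidase that trims class I peptides, had −0.57 ± 0.19. Of 6 genes of class II processing, 4 had an unadjusted p under 0.05 in females, all lower, led by the invariant chain protease Ctss at −0.64 ± 0.18 (adjusted p = 0.290). Of 12 transcription factors of MHC genes, 6 did, among them Irf1 (−0.95 ± 0.22, adjusted p = 0.177) and Spib (−0.57 ± 0.16). Without room air female 6 Irf1 was at −0.56, and Spib (−0.69, adjusted p = 0.0455) and the B cell coactivator Pou2af1 (−0.65, adjusted p = 0.0443) were called. That fit called 206 of all genes in females (0.44%), against 1 over all lungs. In the fit of all lungs the RFX subunits Rfx5, Rfxap and Rfxank had log2 fold changes of −0.13, −0.10 and −0.08. Of 11 interferon-gamma pathway genes, 4 were lower and 1 higher at that level in females, with Gbp2 at −2.31 ± 0.83, or −0.44 without room air female 6. Class I-like genes outside the H2 region (6 genes, 1 lower at that level) and T cell co-stimulation and MHC receptor genes (8 genes, 1 lower and 1 higher) had female medians of −0.08 and 0.17. Leaving out hyperoxia female 5, which took the share of genes at 10 CPM or more from 14.4% to 5.29%, gave counts of 3 of 10 for peptide loading, 1 of 6 for class II processing, 3 of 12 for the transcription factors and 1 of 11 for the interferon-gamma pathway. Without room air female 6 they were 5, 5, 5 and 5, without room air female 5 they were 6, 1, 3 and 4, without room air female 2 they were 6, 2, 3 and 4, without hyperoxia female 4 they were 6, 2, 3 and 2, and without hyperoxia female 2 they were 7, 3, 5 and 2.

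Markers of some cells that carry class II were also at lower levels in hyperoxia females. Summed over 10 B cell markers the level was 272 to 367 CPM in room air females, 239 to 282 in hyperoxia females, 248 to 299 in room air males and 262 to 287 in hyperoxia males, and 5 of 10 were lower in hyperoxia females at an unadjusted p under 0.05, among them Ms4a1, which encodes CD20 (−0.56 ± 0.18). The 8 general leukocyte markers summed to 591 to 767 CPM in room air females, 425 to 543 in hyperoxia females, 469 to 642 in room air males and 412 to 539 in hyperoxia males, and 6 of 8 were lower in females at that level. For 8 alveolar type 2 markers the sums were 6249.7 to 12034 CPM in room air females, 5882 to 7648 in hyperoxia females, 5154 to 8235 in room air males and 4884 to 10292 in hyperoxia males, with 0 of 8 at that level and a female median of −0.47. The 8 capillary endothelial markers, cells rich in class I, had a female median of −0.44 with 1 of 8. Markers of dendritic cells, alveolar macrophages and T cells had female medians of −0.10, 0.03 and −0.0013, with 0 of 30 genes at that level, and the 10 interstitial macrophage and monocyte markers one of −0.20 with 1. Single lungs moved these counts, and moved the counts of all genes too. Of the genes at 10 CPM or more, 30.1% were lower at that level without room air female 6 and 4.42% without room air female 5. Without room air female 6, 7 B cell, 5 alveolar type 2 and 5 capillary markers were lower in females at that level. Without room air female 5 or hyperoxia female 5, 0 of the leukocyte markers were, and without room air female 2, 3 were. The B cell count was 3 without hyperoxia female 4 or room air female 5, and the capillary count was 3 without hyperoxia female 2, hyperoxia male 1 or hyperoxia male 2 and 0 without hyperoxia female 4 or room air female 5. The alveolar type 2 count was 1 without hyperoxia male 1 and 2 without hyperoxia male 2. The female medians moved too. Without room air female 5 they were −0.26 for alveolar type 2 and −0.33 for capillary markers, and without room air female 6 −0.69 and −0.62. No marker gene of these lists was at 0 in all lungs. The part of these cells in the MHC differences was not tested, and in whole lung fewer cells of a type and less RNA per cell cannot be told apart.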

How the data were processed

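Total RNA of 12 whole lungs was sequenced from ribosome-depleted libraries (the labels name a NEBNext directional kit, the study's methods a QIAseq stranded kit). The authors trimmed reads with Trim Galore, aligned them to mm10 with STAR and deposited featureCounts read counts per gene. Versions, annotation release and strand setting are not given in the sources used here, so reads of overlapping genes on opposite strands may be mixed. Gene positions and exon lengths came from GENCODE M21, promoters from RefSeq GRCm38.p6.

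Groups were sex by exposure, 3 lungs each. Counts of 45828 genes passing filterByExpr were fitted with edgeR 4.0.16 (R 4.3.3), upper-quartile normalisation and the robust quasi-likelihood test over all 12 lungs, and p-values were Benjamini-Hochberg adjusted over all genes tested. Called genes differed over 1.5-fold with an adjusted p under 0.05. CPM used the normalised library sizes. Separate litters are not labelled, so p-values measure the spread between these lungs, and floors cover counting error only. In simulated counts for the female comparison over 45828 genes, 58 of 100 2-fold and 100 of 100 4-fold changes were recovered, with 14 false calls. The changed genes were picked from well-counted ones. Every gene had the same dispersion (biological coefficient of variation 0.177) and no lung stood apart, so these rates hold for those settings only. Background density was the median count per kilobase over 2003 olfactory and vomeronasal receptor genes.

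The members and lists were chosen with earlier results of these data known. Values in every lung are given for 12 genes set by role and the 6 others with the smallest p in the averaged hyperoxia comparison; further genes are named for their role, or after their values were seen. Alternatives were TMM, DESeq2 1.42.0, RUVr with 1 or 2 factors (the number used in the study is not given), other count filters, the receptor share as a covariate, a replicate block and leaving out each lung. The study's batch adjustment (ComBat-seq) was not used here. Results of 2 genes of the lists, 1 of the 12 correlated relations among them, are not reported here.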

Additional observations from a re-analysis of the deposited data

Results flagged for a closer look

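Levels of the 18 genes given per lung were searched for lungs far from the others of their exposure, 6 lungs at a time, by the gap to the nearest lung over the range (Dixon's test). Of 36 sets 5 had such a lung. A rate of about 1 in 20 by chance holds for independent sets, each from a single population. These sets pool both sexes and hold genes that vary together, so the count cannot be read against that rate. Room air female 6 was the outlying lung for Ciita (129 CPM, nearest lung 64.4, gap 0.806 of the range), Nlrc5 (162 CPM, nearest 57.2, gap 0.905) and Tap1 (141 CPM, nearest 48.7, gap 0.892). Hyperoxia female 4 was the outlying lung for B2m (493 CPM, nearest 293, gap 0.649) and H2-Q7 (49.3 CPM, nearest 28.3, gap 0.685). Sex differs within these sets, and its part in the gaps was not tested.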

How the results depend on the processing

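The class II median stayed below 0 in females under every alternative, and most single-gene differences kept their direction and missed the threshold. Depth limits the M region genes, some of which had fewer than 30 counts in a lung. Genes called in the averaged comparison numbered 40 with DESeq2, 92 and 110 with 1 and 2 RUVr factors, and 3 to 37 when a lung was left out. In females they numbered 0 with TMM, 89 with DESeq2, 1903 and 1931 with RUVr, 8 without a filter, 22 with the receptor share covariate and 0 to 206 when a lung was left out. In males they numbered 16 and 64 with RUVr, 6 with the covariate and 0 to 1 when a lung was left out, and for the interaction 2101 and 2194 with RUVr. Between the sexes they numbered 1006 and 1040 with RUVr, 1004 without a filter, 266 with 10 counts required in every library and 976 with the covariate. Members called were 1 (DESeq2) and 4 (RUVr, 1 or 2 factors) in females, 2 (RUVr) for the interaction, and 2 (DESeq2) and 0 to 4 (a lung left out) between the sexes.

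The animal numbers do not pair the exposures (same-number correlations −0.34, 0.08 and −0.19). With the number as a replicate block in females, genes called were 19 in the average, 1 in females, 1 in males and 179 between the sexes, and 3 class I genes were higher in females at an unadjusted p under 0.05.

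With the receptor share covariate the class I median in females was −0.22, the class II median −0.16 and that of the interaction 0.051. With a lung left out these ran over −0.16 to 0.088, −0.51 to −0.32 and −0.64 to −0.23, and the class II median in males over −0.18 to 0.12. Single genes turned direction with the covariate (H2-Eb1 0.058 in females, Ciita 0.00079 and Nlrc5 0.023 in males), and H2-M10.6 between the sexes with DESeq2 (0.015) and the covariate (0.079). Leaving out a lung gave male ranges that cross 0 for Cd74 (−0.36 to 0.092), H2-Aa (−0.31 to 0.17), H2-Ab1 (−0.30 to 0.17), H2-Eb1 (−0.26 to 0.25), H2-K1 (−0.50 to 0.030), H2-D1 (−0.42 to 0.064), Nlrc5 (−0.13 to 0.029), Tapbp (−0.21 to 0.13) and H2-T24 (−0.29 to 0.078), with male room air lung 4 or male hyperoxia lung 2 as the lung left out at the upper end. Likewise Nlrc5 (−1.01 to 0.0077) and H2-Q7 (−0.54 to 0.029) crossed 0 in females, without room air lung 6 and hyperoxia lung 5, and H2-M10.6 between the sexes (−0.16 to 0.046). The causes were not tested.

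For the correlations, r without the 2 farthest lungs was 0.95 for Cd74 with H2-Aa, 0.87 with Ciita, 0.61 with Cd79a, 0.51 with Marco and 0.80 with Sftpc. On deviations from group means r was 0.97 for Cd74 with H2-Aa, −0.35 with Ciita and −0.46 with Flt3, and 0.91 and 0.33 for B2m with H2-K1 and Nlrc5. Without room air female 6, r for Cd74 with Ciita was 0.87. These settings were added after the data were seen.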
